A study of Mus musculus with 4 samples.

Results

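The genes described here are 35 genes of the endoplasmic reticulum (ER) stress response, also called the unfolded protein response. They were taken by symbol from the 31253 features of the expression matrices. All 35 symbols were found, as 36 features, because Ddit3 is listed as 2 overlapping features. The second Ddit3 feature had no UMI in any class, and reads in the stretch the features share could have been discarded in counting, so Ddit3 levels are uncertain. The genes were divided by the branch known for driving them into a PERK arm of 7 genes, an IRE1 arm of 9, an ATF6 arm of 12 and 7 folding and degradation genes driven by several arms. Many ATF6 and IRE1 targets overlap, and each gene was put in 1 arm only.

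Proteins bound for secretion or for the cell surface fold in the ER, and 3 sensors in its membrane respond when unfolded protein builds up. PERK, encoded by Eif2ak3, phosphorylates eIF2alpha and slows translation while favouring that of the transcription factor ATF4. IRE1, encoded by Ern1, splices the Xbp1 mRNA into the form that encodes an active factor. ATF6 moves to the Golgi, is cut there and releases a factor that drives chaperone genes. Among immune cells, plasmacytoid dendritic cells and antibody-secreting cells are known for large secretory output, and dendritic cells for a dependence on XBP1. Gene counts of this kind do not show splicing of Xbp1, phosphorylation or cleavage, so the levels below are those of total mRNA.

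The libraries were 3′-end single-cell libraries, per the kit named in the labels, of CD45+ cells. The cells were sorted from tumours grown under the skin from MC38, a colon adenocarcinoma line of the mouse. Mice aged 8 weeks received 100000 tumour cells, and on day 16 the tumours were removed and treated with collagenase, and the cell suspensions were frozen and later thawed. There were 2 libraries from WT mice and 2 with the label cKO. The gene removed is Ufl1, whose product joins the small modifier UFM1 to target proteins, many of them at the ER. T cells are where the title sets the loss of Ufl1, so myeloid cells of the cKO mice would keep the gene. The driver of Cre, the deleted exons, and whether libraries came from separate or pooled animals are not given in the labels used here, so p-values measure only the spread between these libraries, which may be technical.

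Across the 4 libraries 30279 cells were kept, 6845 to 8657 per library, with a median of 7011 to 8165 UMIs per cell. In T-like cells Ufl1 itself was lower than in WT in 1 library labelled cKO and higher in the other. It had 15.6 and 16.2 UMIs per 1000000 in WT T-like cells and 14.4 and 19.3 in those labelled cKO. A 3′ count cannot check a deletion whose exons are not known. The library labelled cKO replicate 2 stood apart, with 289.8 Xist UMIs per 1000000 against 0.128 to 1.01 in the others and 11 Ddx3y UMIs against 2886 to 3429. Both genes are sex-linked, with the pattern of female cells in cKO replicate 2 and of male cells in the others. The labels do not explain the difference. No WT library had the female pattern, so sex is partly confounded with genotype. The part of sex in the genotype comparisons was not tested. The same library, cKO replicate 2, also shared 479 cell barcodes with WT replicate 1, where other pairs of libraries shared 85 to 104. Each genotype comparison was therefore also made without cKO replicate 2 and without the shared barcodes. Cells were named by clusters built without the 35 genes, and "-like" marks a name given from marker genes. The classes compared below held at least 20 cells in every library, 4373 T-like and 16736 myeloid-like cells being the broadest. All myeloid-like cells joined macrophage-, monocyte- and neutrophil-like cells with conventional and migratory dendritic cell-like cells. Plasmacytoid dendritic cell-like cells were not among them. Of the clusters, 1395 cells with few UMIs, 1362 with haemoglobin RNA and 485 T cells with myeloid RNA were kept out. Another 1348 T-like cells could not be assigned to a subset and stayed in all T-like cells. They held 2632491 of 5060194 T-like UMIs in WT replicate 1 and 4864241 of 12199391 in WT replicate 2. In cKO replicates 1 and 2 they held 2728440 of 6261873 and 3959342 of 10348476.

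Known elements of the 3 arms were searched in the promoters of the genes, to set the sequences beside the levels of the genes. Windows from 250 bases before to 50 after the start of 31 of the 35 genes were found among 32851 windows from RefSeq (GRCm38.p6); Derl1, Manf, Hyou1 and Atf6 had none there. The ER stress response element, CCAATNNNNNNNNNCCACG on either strand, was present in 0.119% of all windows and in 9 of the 31. These 9 were Hspa5, Hsp90b1, Calr and Creld2 of the ATF6 arm, Dnajc3 and Derl3 of the IRE1 arm, and Canx, Pdia6 and Syvn1 of the genes with several arms. None of the 7 PERK arm genes held it. The following stretches show the element in 5 chaperone genes, with its conserved ends in capitals.
Hspa5, chr2:34772010-34772058, plus strand: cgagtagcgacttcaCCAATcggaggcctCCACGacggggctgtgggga
Hsp90b1, chr10:86705518-86705671, minus strand: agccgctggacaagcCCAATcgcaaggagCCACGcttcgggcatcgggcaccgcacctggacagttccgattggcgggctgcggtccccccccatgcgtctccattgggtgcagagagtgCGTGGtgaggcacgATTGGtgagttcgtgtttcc
Calr, chr8:84847060-84847108, minus strand: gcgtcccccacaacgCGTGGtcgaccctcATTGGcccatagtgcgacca
Creld2, chr15:88819505-88819553, plus strand: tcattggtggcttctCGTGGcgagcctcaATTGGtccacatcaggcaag
Pdia6, chr12:17266476-17266524, plus strand: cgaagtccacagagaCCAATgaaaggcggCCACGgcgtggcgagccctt
Hsp90b1 held the element in both orientations, and its stretch spans both. The related element ERSE-II, ATTGGNCCACG, was present in 0.0365% of windows and in 2 of the genes, Herpud1 and Dnajb11. In the levels given below Herpud1 departs from the chaperones, and Dnajb11 does not. Herpud1 is shown with ERSE-II in capitals.
Herpud1, chr8:94386362-94386402, plus strand: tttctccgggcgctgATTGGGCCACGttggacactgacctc
The C/EBP-ATF element, TGATGNAA, through which ATF4 is known to act, was in 3.97% of windows and in 4 of the genes, namely Asns, Chac1 and Trib3 of the PERK arm and Herpud1. The cyclic AMP response element TGACGTCA was in 1.79% of windows and in Ppp1r15a alone, and TGACGTGG, the core that XBP1 is known to bind, was in 0.676% and in none of the 31. Matches in 3 PERK arm genes are shown in capitals, to set beside the chaperone promoters.
Chac1, chr2:119351034-119351071, plus strand: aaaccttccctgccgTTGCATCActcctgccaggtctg
Asns, chr6:7693210-7693247, minus strand: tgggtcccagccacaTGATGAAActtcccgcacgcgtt
Ppp1r15a, chr7:45526269-45526295, minus strand: accccgcctctccggTGACGTCAgcac

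Levels of the genes were first compared among 12 cell classes, as UMIs of the gene per 1000000 UMIs of the class (CPM), with the mean ± SD over 4 libraries. Plasmacytoid dendritic cell-like (pDC-like) cells had the highest mean for 12 of the 35 genes, and migratory dendritic cell-like (migratory DC-like) cells the lowest for 20. By arm, migratory DC-like cells were lowest for 10 of the 12 ATF6 genes and none of the 7 PERK genes. In pDC-like cells 6 ATF6 genes were highest, and all 3 genes lowest there belonged to the PERK arm. The other classes that were highest for several genes were conventional type 1 dendritic cell-like (cDC1-like) cells, for 6, gamma-delta T-like cells, for 5, and B-like cells, for 3. For 12 genes the highest class did not overlap the second in any library. The ratio of the highest to the lowest class mean had a median of 4.72 over the 32 genes with a UMI in every class, which leaves out Derl3, Chac1 and Asns, and was 1.41 for Derl2, the smallest.

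**Figure D1:**
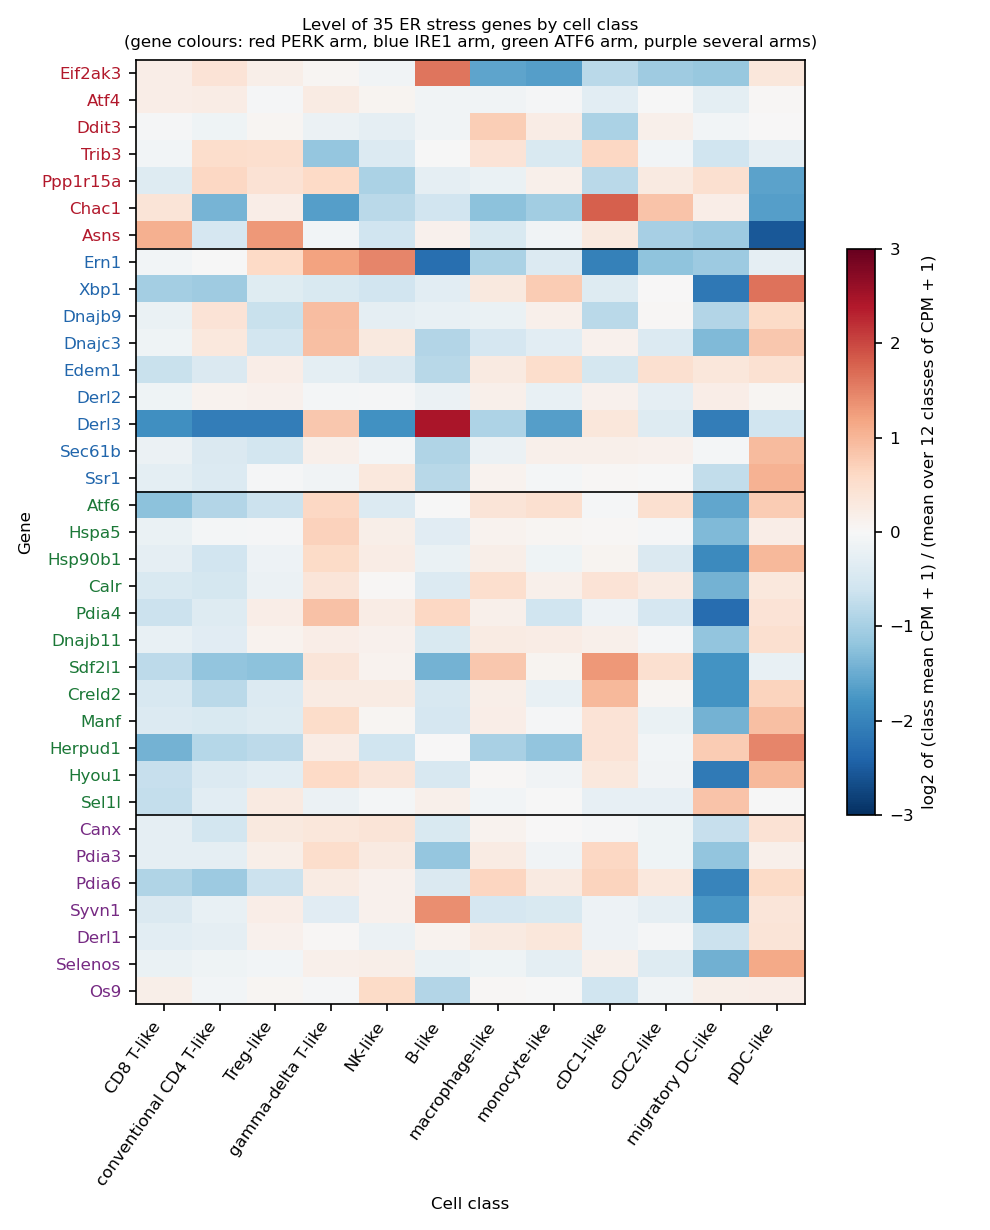
Levels of the 35 genes in 12 cell classes. Colour gives the log2 of the class mean CPM + 1 over the mean of the 12 classes, rows are genes grouped by arm, and columns are classes; the migratory DC-like column is mostly blue in the ATF6 block and the pDC-like column mostly red outside the PERK block.

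The 3 sensors peaked in different classes. Eif2ak3 (PERK) was highest in B-like cells at 95.7 ± 29.5 CPM (SD, n = 4), followed by conventional CD4 T-like cells at 41.6 ± 2.89, and these did not overlap. It was lowest in monocyte-like cells, at 9.23 ± 0.874. Ern1 (IRE1) was highest in NK-like cells at 135 ± 3.10 and in gamma-delta T-like cells at 112 ± 21.6, which overlapped, and lowest in B-like cells at 9.30 ± 2.41. Thus the class with the most Eif2ak3 mRNA had the least Ern1 mRNA. Atf6 was highest in pDC-like cells at 75.7 ± 8.98 and gamma-delta T-like cells at 68.5 ± 8.59, which overlapped, and lowest in migratory DC-like cells at 14.3 ± 5.27.

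**Figure D2:**
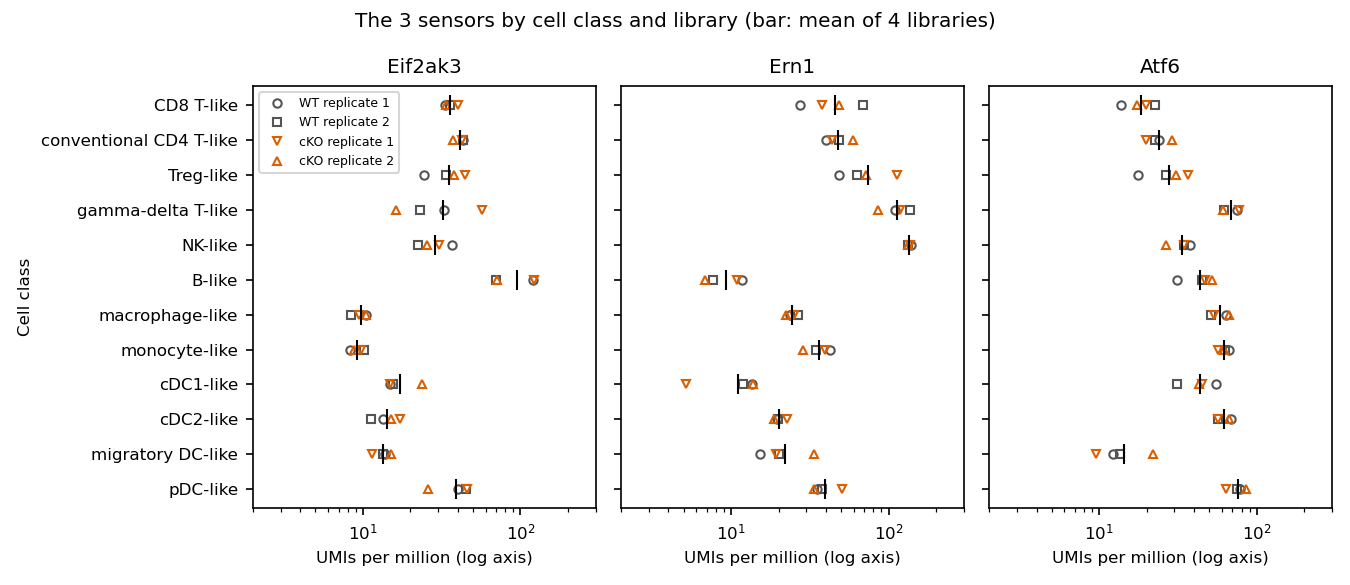
The 3 sensors by class and library. Each point is 1 library (grey WT, orange cKO) and each bar the mean of 4, in CPM on a log axis; Eif2ak3 lies highest in B-like cells and Ern1 lowest there, and Atf6 is lowest in migratory DC-like cells.

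One NK-like cluster of 515 cells had 594 CPM of Ern1, against 98.3 to 121 in the other 5 NK-like clusters. This cluster was also high in the nuclear RNA Malat1, at 13909 CPM, and its cells had a median of 2900 UMIs. The part of nuclear RNA in its Ern1 level was not tested. The NK-like mean of 135 CPM given above includes this cluster. The other 5 NK-like clusters, at 98.3 to 121, lay on either side of the gamma-delta T-like mean of 112.

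In the IRE1 arm, Xbp1 was highest in pDC-like cells at 581 ± 12.6 CPM, well above monocyte-like cells at 316 ± 31.5, and lowest in migratory DC-like cells at 41.1 ± 17.7. Sec61b, a subunit of the channel through which proteins enter the ER, was also highest in pDC-like cells, at 1232 ± 54.7 against 710 ± 40.4 in monocyte-like cells. Both genes separated pDC-like cells from every other class in all libraries. Dnajb9, a co-chaperone that restrains IRE1, was highest in gamma-delta T-like cells at 204 ± 43.1, overlapping pDC-like cells at 160 ± 28.6. In B-like cells the levels of Xbp1 and Derl3, a component of ER-associated degradation, differed widely between libraries. Xbp1 had 357, 72.6, 60.7 and 111 CPM there (here and below in the order WT replicates 1 and 2, cKO replicates 1 and 2), and Derl3 had 66.4, 1.54, 2.72 and 17.8. The 5 B-like cells with at least 20 UMIs of Jchain, the joining chain of secreted antibody, were in the libraries with the higher values, 4 of 187 B-like cells in WT replicate 1 and 1 of 367 in cKO replicate 2.

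In the ATF6 arm, Hspa5, which encodes the main ER chaperone BiP, was highest in gamma-delta T-like cells at 1425 ± 55.2 CPM and lowest in migratory DC-like cells at 352 ± 77.5. The gamma-delta T-like cells did not overlap pDC-like cells, next at 1017 ± 139. Hsp90b1, the ER member of the HSP90 family, was highest in pDC-like cells at 1171 ± 85.4. Herpud1, a scaffold of the degradation machinery, followed another order from the chaperones: it was highest in pDC-like cells at 446 ± 60.3, second in migratory DC-like cells at 272 ± 29.5 and lowest in CD8 T-like cells at 59.4 ± 3.98. Dnajb11, the other gene with ERSE-II, did not share that order. It was highest in pDC-like cells at 152 ± 13.9 and lowest in migratory DC-like cells at 47.2 ± 5.48. Sel1l, the partner of the ubiquitin ligase HRD1, was highest in migratory DC-like cells at 58.2 ± 9.82 and did not overlap the next class, Treg-like cells at 38.7 ± 5.73.

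In the PERK arm, Atf4 differed little between classes, from 266 ± 26.7 CPM in gamma-delta T-like cells to 179 ± 21.3 in cDC1-like cells. Ddit3 (CHOP), an ATF4 target linked to cell death, was highest in macrophage-like cells at 79.9 ± 7.65 and lowest in cDC1-like cells at 24.4 ± 2.92. Ppp1r15a (GADD34), which brings the phosphatase that reverses PERK's action, was highest in conventional CD4 T-like cells at 446 ± 67.8, overlapping gamma-delta T-like cells at 441 ± 64.8, and lowest in pDC-like cells at 94.8 ± 41.3. Ppp1r15a is also known as an early response gene, and a list of 10 immediate early and heat shock genes, chosen after these values were seen, had 18143 CPM in conventional CD4 T-like cells and 5692 in pDC-like cells. Its part in the order of Ppp1r15a was not tested. Chac1, which degrades glutathione, and Asns, asparagine synthetase, had no UMI in pDC-like cells, where 3 UMIs over the class would be 1.06 CPM. Trib3, an inhibitory pseudokinase induced by ATF4, was low throughout, at most 3.42 ± 2.15 CPM in cDC1-like cells.

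Classes were then compared pairwise within libraries with edgeR's quasi-likelihood test, with the library as a block, an adjusted p threshold of 0.05 and TMM-normalised CPM for the values quoted. The classes were drawn from other genes of the same cells, so these tests describe differences between classes so drawn. Migratory DC-like cells were compared with type 2 conventional dendritic cell-like (cDC2-like) cells first. Of the 32 genes tested 3 were higher and 20 lower, where 22.2% of the 10262 genes tested were called higher and 26.7% lower. The ATF6 arm had 2 higher and 10 lower of 12, the genes with several arms none higher and 6 lower of 7, the IRE1 arm 1 higher and 4 lower of 8, and none of the 5 PERK genes tested was called. The median log2 difference was -0.88 over the 32 genes and -0.07 over all genes tested.

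The genes lower in migratory DC-like cells included most ER chaperones and oxidoreductases. Pdia6, a protein disulfide isomerase, had 79.3, 58.4, 38.4 and 34.6 CPM in migratory DC-like cells and 248, 258, 239 and 284 in cDC2-like cells, a log2 difference of -2.30 ± 0.19 (SE). Every migratory DC-like value lay below every cDC2-like value. Sdf2l1, part of a BiP co-chaperone complex, had 59.4, 31.5, 46.4 and 19.0 against 174, 166, 183 and 216 (-2.24 ± 0.24), and Xbp1 had 67.1, 29.2, 34.3 and 36.3 against 177, 164, 206 and 196 (-2.14 ± 0.19). Atf6 itself was lower at -2.07 ± 0.23, and Hspa5 at -1.26 ± 0.13, with 434, 283, 305 and 412 against 760, 828, 843 and 977. So the sensor of the ATF6 arm and its chaperone targets were low in the same class. The migratory DC-like cluster of 313 cells had 8845 CPM of Malat1 and the cDC2-like cluster 3027, and the part of nuclear RNA in these differences was not tested.

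The 3 genes higher in migratory DC-like cells were Sel1l, Herpud1 and Derl2, while Syvn1 (-1.57 ± 0.31), Derl1 (-0.58 ± 0.16) and Selenos (-1.001 ± 0.167), which also serve ER-associated degradation, were lower. Sel1l had 59.4, 45.0, 62.6 and 70.9 CPM against 24.2, 20.4, 24.7 and 34.1 in cDC2-like cells (1.21 ± 0.18). Herpud1 had 285, 301, 283 and 240 against 134, 164, 137 and 169 (0.88 ± 0.13). Neither gene overlapped between the classes. Derl2, a membrane component of the degradation machinery, had 59.4, 40.5, 70.7 and 62.3 against 39.6, 40.6, 38.6 and 40.4 (0.55 ± 0.17), with WT replicate 2 not higher. Without cKO replicate 1 the difference in Derl2 was 0.45 with an adjusted p of 0.0699, and DESeq2 gave an adjusted p of 0.0533. Of the 9 genes named above as holding the ER stress response element, 8 were tested and all 8 were lower, with a median log2 difference of -1.51. Of the 22 genes whose promoter window lacked the element, 20 were tested, 3 were higher and 8 lower, with a median of -0.22. The split differed between contrasts. In pDC-like against cDC2-like cells 4 of 8 genes with the element were higher and 1 lower, beside 10 and 6 of 21 without it. In NK-like against CD8 T-like cells it was 8 and 0 of 8, beside 10 and 4 of 22. In Treg-like against conventional CD4 T-like cells it was 1 and 1 of 8, beside 2 and 4 of 19. Of the 9 genes 4 are of the ATF6 arm and 3 of several arms, so the split overlaps with the counts by arm. This is a description of where the letters occur, and the choice of genes leaves it without a test.

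In pDC-like cells against cDC2-like cells the direction was mostly the opposite outside the PERK arm. Of the 33 genes tested 16 were higher and 7 lower, against 23.4% and 27.1% of the 10315 genes tested. The IRE1 arm had 6 higher and 1 lower of 8, and the ATF6 arm 7 higher and 2 lower of 12. Of the 6 PERK genes tested 1 was higher, Eif2ak3, and 4 were lower. The median log2 difference was 0.26, against -0.03 for all genes.

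Xbp1 had 516, 529, 543 and 527 CPM in pDC-like cells and 199.97, 183, 230 and 220 in cDC2-like cells, a difference of 1.35 ± 0.08. Herpud1 had 424, 482, 370 and 348 against 151, 183, 152 and 190 (1.27 ± 0.09), and Selenos, a selenoprotein of the degradation machinery, had 208, 228, 223 and 225 against 87.9, 85.8, 100.3 and 97.4 (1.25 ± 0.09). For each of these genes all pDC-like values exceeded all cDC2-like values. Ppp1r15a was lower, with 55.5, 90.8, 62.2 and 137 against 361, 345, 404 and 418 (-2.17 ± 0.19), and Sdf2l1 was lower with 92.9, 130, 75.8 and 120 against 196, 185, 203 and 242 (-0.98 ± 0.11). Beside Ppp1r15a, the summed immediate early and heat shock list ran from 3635 to 9188 CPM in pDC-like and from 24930 to 30378 in cDC2-like cells, and its part was not tested. Chac1 had 0 UMIs in pDC-like cells and 139 in cDC2-like cells, which makes it at least 4.20-fold lower with a floor of 3 UMIs over the class. With Chac1 at that bound, the median over the genes tested stayed at 0.26.

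**Figure D3:**
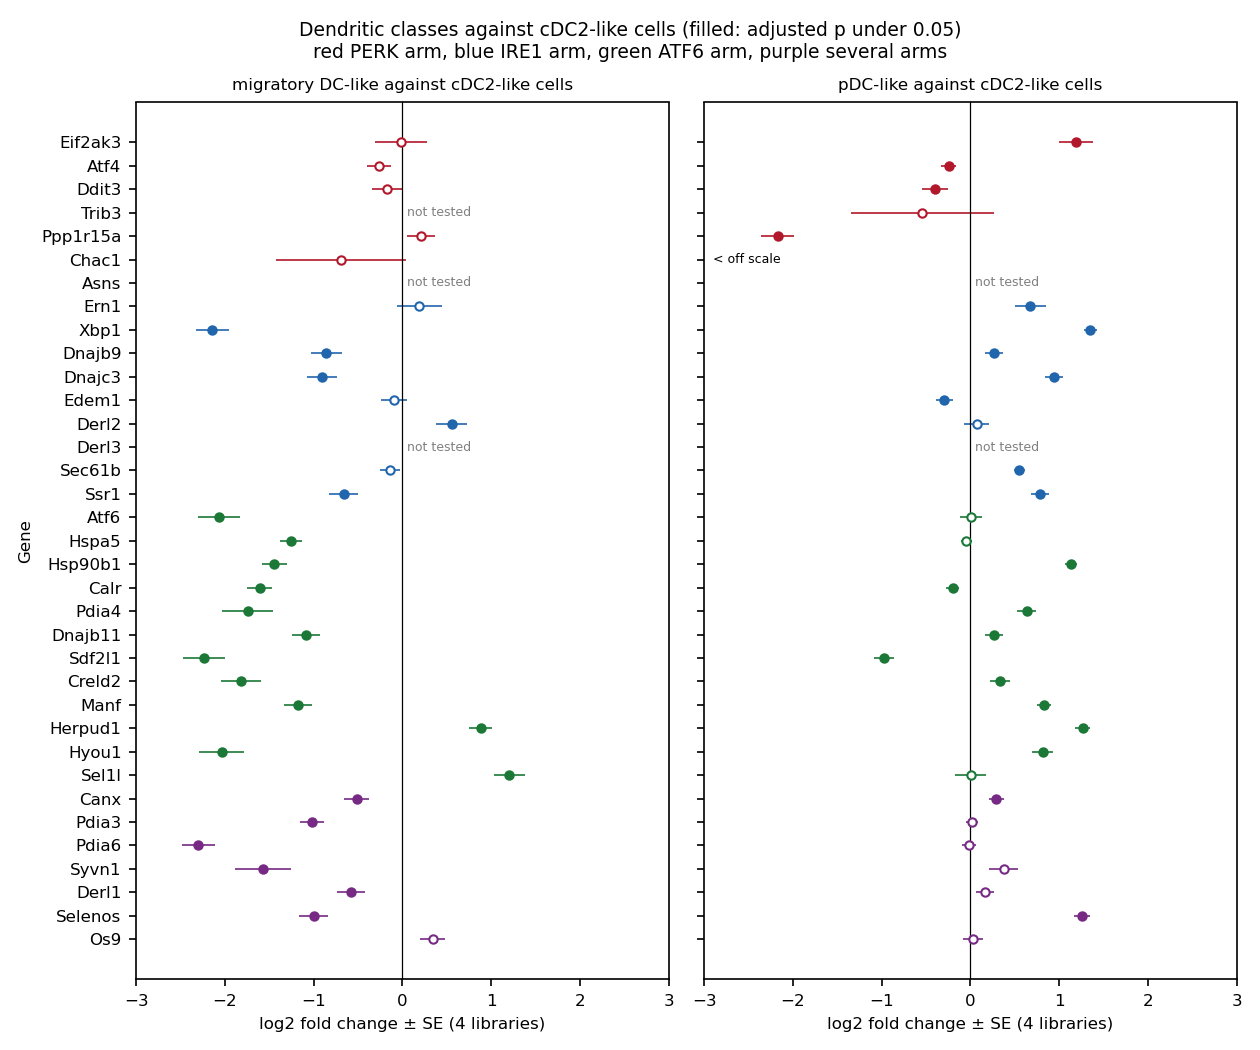
Differences of migratory DC-like (left) and pDC-like (right) cells from cDC2-like cells. The x axis is the log2 fold change ± SE over 4 libraries, points are genes coloured by arm, and filled points have an adjusted p under 0.05; the green ATF6 genes lie left of 0 in migratory DC-like cells except Herpud1 and Sel1l, and Chac1 lies off the scale on the right because it had no UMI in pDC-like cells.

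In cDC1-like cells against cDC2-like cells 15 of 35 genes were higher and 9 lower, where 23.4% and 24.3% of the 10273 genes tested were called. The ATF6 arm had 8 higher and 1 lower of 12. Creld2, an ER-resident protein induced by ATF6, had 90.6, 165, 108 and 112 CPM against 56.2, 51.4, 65.6 and 72.7 (0.93 ± 0.20), with no overlap. The PERK arm was divided. Asns (10.8, 5.62, 7.78 and 0.900 against 2.67, 0.829, 2.73 and 1.40; 1.70 ± 0.39) and Chac1 (8.29, 15.9, 10.2 and 5.40 against 3.28, 3.73, 8.21 and 3.30; 1.08 ± 0.30) were higher, while Ddit3 (21.1, 29.0, 24.5 and 24.3 against 40.6, 55.4, 51.7 and 61.4; -1.07 ± 0.13) and Ppp1r15a (186, 128, 148 and 199 against 324, 312, 361 and 377; -1.06 ± 0.08) were lower. Edem1, which delivers misfolded glycoproteins to degradation, was lower at -1.01 ± 0.09. Asns rested on 37 UMIs in cDC1-like cells and was not higher in cKO replicate 2. Without WT replicate 2 the difference in Chac1 was 0.73 with an adjusted p of 0.0681. Assigning cells by marker UMIs gave adjusted p-values of 0.0695 for Asns and 0.0643 for Creld2.

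In all myeloid-like against all T-like cells 29 of the 35 genes were higher and 3 lower, against 39.7% and 38.4% of the 13232 genes tested. All 12 ATF6 genes and all 7 genes with several arms were higher in myeloid-like cells. Atf6 had 71.9, 65.4, 62.8 and 72.1 CPM in myeloid-like and 17.1, 19.3, 19.3 and 18.8 in T-like cells, a difference of 1.86 ± 0.08. Xbp1 had 275, 250.1, 289 and 334 against 78.6, 75.2, 92.6 and 89.4 (1.77 ± 0.06), and Pdia6 differed by 1.45 ± 0.07. Those 3 genes did not overlap between the lineages. The 3 lower genes were the other sensors, Eif2ak3 (11.9, 11.6, 13.0 and 12.4 against 30.5, 30.3, 33.8 and 28.0; -1.32 ± 0.08) and Ern1 (32.1, 33.1, 33.2 and 28.4 against 36.0, 51.1, 44.9 and 39.8; -0.44 ± 0.08), together with Asns (-1.05 ± 0.21). Thus of the 3 sensors 1 was higher and the other two lower in myeloid-like cells.

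Between macrophage-like and monocyte-like cells genes of every arm differed in both directions. Of 34 genes tested 11 were higher in macrophage-like cells and 12 lower, where 31.7% and 30.7% of the 11639 genes tested were called, so the overall count was close to that of all genes. The ATF6 arm had 5 higher and 2 lower of 12, and the IRE1 arm 2 higher and 6 lower of 9, and the difference between arms was not tested. Pdia4, a disulfide isomerase, had 101, 88.9, 98.9 and 91.8 CPM in macrophage-like and 68.8, 46.7, 58.5 and 70.2 in monocyte-like cells (0.65 ± 0.08). Ern1 had 22.0, 26.7, 24.1 and 20.9 against 43.0, 37.2, 41.9 and 29.1 (-0.67 ± 0.09), and Xbp1 had 237, 181, 217 and 241 against 317, 300, 341 and 361 (-0.60 ± 0.06). None of these 3 genes overlapped between the classes. Derl3 (1.60 ± 0.38), Trib3 (1.19 ± 0.29) and Asns (-0.54 ± 0.14) were also called, at levels of at most 6.05 CPM in any library. Derl3 and Asns lost the call with doublets kept, where the adjusted p was 0.0883 and 0.0843, and Asns did so with DESeq2, at 0.0779. Within macrophage-like cells 2 clusters were low in nuclear RNA, with Malat1 at 222 and 613 CPM, and had Ppp1r15a at 43.7 and 30.3 CPM and Dnajb9 at 20.4 and 16.4. Without them and the other clusters of extreme Malat1 level 9 genes were higher and 9 lower, Trib3 differed by 0.59 with an adjusted p of 0.0991, and Pdia4, Ern1 and Xbp1 differed by 0.61, -0.47 and -0.46.

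In NK-like cells against CD8 T-like cells 21 of 34 genes were higher and 4 lower, where 13.7% and 15.1% of the 10643 genes tested were called. All 12 ATF6 genes were higher, and the 4 lower genes were of the PERK arm, which had none higher of 7. Pdia6 had 225, 246, 187 and 246 CPM in NK-like and 97.2, 120, 116 and 117 in CD8 T-like cells (1.00 ± 0.10), and Hyou1, a large ER chaperone, had 70.5, 60.3, 52.3 and 65.1 against 33.6, 27.2, 30.3 and 31.3 (1.03 ± 0.11). Ern1 had 135, 139, 133 and 126 against 27.8, 72.2, 38.9 and 47.1 (1.48 ± 0.18). The NK-like values exceeded the CD8 T-like values of all libraries in these 3 genes. Without the NK-like cluster high in Malat1 the difference in Ern1 was 1.28. Ppp1r15a had 134, 142, 150.2 and 163 against 263, 182, 226 and 222 (-0.58 ± 0.10). Asns had 2.75, 3.68, 2.44 and 2.59 against 2.31, 13.7, 16.3 and 13.1 (-2.02 ± 0.32), and Chac1 was lower at -1.91 ± 0.60. In WT replicate 1 neither gene was lower in NK-like cells. Without WT replicate 2 the adjusted p of Chac1 was 0.0972, and with DESeq2 it was 0.115.

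CD8 T-like cells came from clusters led by Pdcd1 and by Gzmk. The Pdcd1 cluster held 15 of 152, 336 of 492, 49 of 133 and 209 of 437 of them, so the makeup of the class differed between libraries. Ern1 was 70.6 CPM in the Pdcd1 cluster and 18.8 in the Gzmk cluster, and WT replicate 1, with mostly Gzmk cells, had the lowest Ern1 of the CD8 T-like values. Against conventional CD4 T-like cells 4 of 32 genes were higher in CD8 T-like cells and 4 lower, where 11.6% and 12.5% of the 8529 genes tested were called, so the share was near that of all genes. Ppp1r15a had 260.2, 180.4, 225 and 219.9 CPM against 385, 431, 452 and 532 (-1.04 ± 0.11), without overlap. The summed immediate early and heat shock list was 8457 to 13258 CPM in CD8 T-like and 16900 to 19551 in conventional CD4 T-like cells, and its part was not tested. Asns was higher by 1.96 ± 0.41 (2.29, 13.6, 16.3 and 13.0 against 2.99, 1.78, 6.25 and 1.62), though not in WT replicate 1. Dnajb9 (-0.63 ± 0.13) and Herpud1 (-0.58 ± 0.13) were lower, with adjusted p-values of 0.0566 and 0.0791 without cKO replicate 2. Sdf2l1 (0.40 ± 0.13) and Hsp90b1 (0.30 ± 0.09) were higher, and lost the call when WT replicate 2 or either cKO library was left out, with adjusted p-values of 0.0540 to 0.233. DESeq2 called 3 of these genes, and gave Asns an adjusted p of 0.0958, Herpud1 0.0592, Hsp90b1 0.132 and Sdf2l1 0.336.

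In Treg-like against conventional CD4 T-like cells 3 of 31 genes were higher and 5 lower, where 16% and 15% of the 8221 genes tested were called. Dnajb9 had 46.6, 57.4, 94.4 and 53.3 CPM in Treg-like and 128, 169.6, 146 and 175 in conventional CD4 T-like cells (-1.31 ± 0.16). Dnajc3 (p58IPK), a co-chaperone known to inhibit PERK, had 114, 87.7, 94.4 and 61.5 against 208, 169.6, 187 and 197 (-1.11 ± 0.13), and Atf4 was lower at -0.47 ± 0.11. Dnajb9 and Dnajc3 did not overlap between the classes. Xbp1 was higher, with 128, 137.5, 124 and 154 against 106, 81.9, 105 and 93.2 (0.52 ± 0.14). Its adjusted p was 0.167 with DESeq2. Canx, the chaperone calnexin, was higher by 0.59 ± 0.12 and Edem1 by 0.42 ± 0.16. A Treg-like cluster of 139 cells high in Malat1, at 14490 CPM, had 646 CPM of Canx and 237 of Edem1, against 161 and 78.9 in the other Treg-like cluster and 136 and 69.2 in conventional CD4 T-like cells. Without it the difference in Canx was 0.20 with an adjusted p of 0.252, and that in Edem1 0.21 with 0.392. Edem1 also lost the call when either WT library or cKO replicate 1 was left out, at adjusted p-values of 0.121 to 0.171.

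In B-like against all T-like cells 9 of 33 genes were higher and 7 lower, where 25.5% and 28.2% of the 10846 genes tested were called. Syvn1, the ubiquitin ligase HRD1, had 116, 60.8, 66.6 and 94.3 CPM in B-like and 25.6, 20.7, 21.6 and 26.0 in T-like cells (1.82 ± 0.14). Eif2ak3 had 119.9, 73.9, 126 and 76.3 against 34.0, 33.2, 37.6 and 30.7 (1.51 ± 0.13), and Ern1 had 11.7, 8.21, 11.3 and 7.34 against 40.1, 56.0, 50.04 and 43.6 (-2.32 ± 0.21). These 3 genes separated B-like from T-like cells in every library. Pdia3, a disulfide isomerase for glycoproteins, was lower at -0.96 ± 0.11 and Sdf2l1 at -0.88 ± 0.16. Derl3 was higher by 4.39 ± 0.54, and by 2.50 without the 5 B-like cells with at least 20 Jchain UMIs. Without those 5 cells 8 genes were higher and 15 lower.

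Other genes of the pathway were read from a list of 65 genes in 5 groups, chosen with earlier results of these data known. Unlike the genes compared above, the genes of this list were not left out of the clustering, so they could help to draw the classes. Atf3, for example, was among the leading genes of a macrophage-like cluster. The class differences of this list are therefore a description, and the part of the clustering in them was not tested. In migratory DC-like against cDC2-like cells 7 of 63 were higher and 34 lower, beside 22.2% and 26.7% of all genes tested, and all 9 calls among 13 translocon and signal peptidase genes were lower. P4hb, a disulfide isomerase, was lower at -1.53 ± 0.14 and Cebpb, a partner of CHOP, at -3.10 ± 0.16, while Mthfd2, a mitochondrial folate enzyme and ATF4 target, was higher by 1.77 ± 0.14. In pDC-like cells 31 of 63 were higher and 17 lower, beside 23.4% and 27.1% of all genes, with 11 of 13 translocon genes higher and none lower and 10 of 18 ATF4 targets lower and 3 higher. Txndc5, an ER oxidoreductase, was higher by 1.85 ± 0.11 and Ubxn4, which recruits p97 to the ER, by 1.17 ± 0.08, and Nupr1, a stress-induced nuclear protein, was lower at -4.07 ± 0.25. In cDC1-like cells 27 of 63 were higher and 12 lower, beside 23.4% and 24.3% of all genes, among them Pdia5 (3.30 ± 0.19), Psat1, a serine synthesis enzyme (1.62 ± 0.14), and Nupr1 (-2.14 ± 0.15).

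In myeloid-like against T-like cells 37 of 64 genes of that list were higher and 16 lower, beside 39.7% and 38.4% of all genes, led by Nupr1 (6.47 ± 0.10), Atf3 (4.90 ± 0.08) and Cebpb (3.03 ± 0.07). Macrophage-like cells had 14 of 63 higher and 21 lower than monocyte-like cells, beside 31.7% and 30.7% of all genes, so the list stood below or near all genes, with Slc7a11, the cystine transporter, at -2.61 ± 0.11, Cebpb at -0.96 ± 0.06 and Ssr3 at -0.61 ± 0.05. In B-like cells 11 of 62 were higher and 21 lower than in T-like cells, beside 25.5% and 28.2% of all genes, and of 17 ATF4 targets none was higher and 11 were lower, among them Ddit4 (-2.34 ± 0.14) and Psat1 (-2.28 ± 0.21), whereas Ero1lb, an ER oxidase, was higher by 3.22 ± 0.14. NK-like cells had 16 of 60 higher and 3 lower than CD8 T-like cells, beside 13.7% and 15.1% of all genes, with P4hb at 0.66 ± 0.11, Ssr2 at 0.58 ± 0.08 and Mthfd2 at -0.88 ± 0.15. Treg-like cells had 11 of 58 higher and 2 lower than conventional CD4 T-like cells, beside 16% and 15% of all genes, so the higher share was near that of all genes, with Creb3l2 at 1.94 ± 0.30, Cars at 1.63 ± 0.37 and Ddit4 at 0.54 ± 0.11. CD8 T-like cells had 7 of 58 higher and 2 lower, beside 11.6% and 12.5% of all genes, so the higher share was again near that of all genes, with Slc7a5, an amino acid transporter, at 0.63 ± 0.13, Atf3 at -1.09 ± 0.13 and Herpud2 at -0.62 ± 0.13.

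The genotype comparison asked whether the libraries labelled cKO differed from WT in these genes in T cells, where the title sets it, and in myeloid cells. In all T-like cells none of the 34 genes tested passed edgeR's test, where 0% of the 11009 genes tested did. One gene, Ppp1r15a, had an unadjusted p under 0.05, as did 2.03% of all genes tested, and DESeq2 called none. By direction alone 13 genes were higher and 21 lower in cKO, with a median log2 difference of -0.05, against -0.00 over all genes, of which 49.3% were higher. Without WT replicate 1 the split was 17 higher and 18 lower, and without cKO replicate 1 it was 16 and 19, each with a median of -0.00. The PERK arm had 5 higher of 7, the IRE1 arm 3 of 8, the ATF6 arm 3 of 12 and the genes with several arms 2 of 7. The 2 groups did not overlap for 13 of the 34 genes, and for 29.8% of all genes tested. The makeup of all T-like cells differed between libraries. Conventional CD4 T-like cells were 133 of 692 and 242 of 1601 in WT and 227 of 772 and 217 of 1308 in cKO, and its part was not tested. The wider list had no call among 61 genes, with Shmt2 (-0.32 ± 0.12) and Phgdh (-0.29 ± 0.11) nearest to one, both enzymes of serine and glycine metabolism.

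The sensors in T-like cells were close between genotypes. Eif2ak3 had 34.97 and 34.80 CPM in WT and 39.1 and 31.9 in cKO (log2 difference 0.02 ± 0.15). Ern1 had 41.2 and 58.6 against 52.0 and 45.3 (-0.06 ± 0.18), and Atf6 had 19.5 and 22.2 against 22.3 and 21.4 (0.06 ± 0.15). All 3 genes left wide intervals for the fold of cKO over WT, with 95% intervals of 0.801 to 1.28 for Eif2ak3, 0.715 to 1.29 for Ern1 and 0.815 to 1.33 for Atf6. Hspa5 had 810 and 819 against 781 and 815, with a fold between 0.831 and 1.16, and Dnajb9 had 98.7 and 103 against 96.2 and 106.0. Atf4 had 215 and 252 against 243 and 251, and Ddit3 had 31.8 and 47.5 against 52.8 and 44.0. For each of these 7 genes the WT and cKO values overlapped.

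The T-like genes with the smallest p were 2 of the PERK arm, 1 of the IRE1 arm and 2 chaperone or degradation genes. Ppp1r15a had 271 and 248 CPM in WT and 311 and 309 in cKO (0.26 ± 0.11, edgeR's adjusted p = 0.999). Xbp1 had 90.1 and 86.3 against 107 and 102 (0.25 ± 0.11), and Chac1 had 1.37 and 0.773 against 2.55 and 1.78 (1.09 ± 0.51). For these genes both cKO values exceeded both WT values, and for Herpud1 (98.7 and 91.1 against 87.7 and 83.6) and Pdia6 (144 and 138 against 123 and 133) both were below. None passed the adjusted threshold under any alternative. The summed immediate early and heat shock list moved in the same direction as Ppp1r15a, with 11601 and 9477 CPM in WT and 14372 and 13029 in cKO T-like cells. Its part was not tested.

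In all myeloid-like cells none of the 35 genes passed, again with 0% of the 12661 genes tested. One gene, Creld2, had an unadjusted p under 0.05, as did 4.46% of all genes tested, and DESeq2 called none. By direction 28 genes were higher and 7 lower in cKO, with a median of 0.12 against -0.00 over all genes, of which 48.8% were higher. The ATF6 arm had 10 higher of 12, the PERK arm 6 of 7, the IRE1 arm 5 of 9 and the genes with several arms 7 of 7. Without cKO replicate 2 the split was 24 higher and 11 lower and the median fell to 0.05. The clusters behind the class also differed in share between genotypes: a monocyte-like cluster led by the interferon-induced genes Rsad2, Cxcl10 and Ifit1 held 215 of 1338 and 489 of 2067 monocyte-like cells in WT and 413 of 1308 and 854 of 1912 in cKO, and its part was not tested. The groups did not overlap for 14 of the 35 genes, and for 32.6% of all genes tested.

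Creld2 had 54.4 and 52.9 CPM in WT and 64.0 and 71.3 in cKO myeloid-like cells (0.33 ± 0.10, edgeR's adjusted p = 0.999). Hspa5 had 812 and 858 against 902 and 1091 (0.25 ± 0.15), Xbp1 had 241 and 221 against 252 and 287 (0.22 ± 0.12), and Dnajc3 had 103 and 92.8 against 109 and 117 (0.21 ± 0.11). Ppp1r15a had 287 and 264 against 297 and 346 (0.22 ± 0.13). In all 5 genes both cKO values exceeded both WT values, and cKO replicate 2 was the highest. Without that library the difference in Hspa5 was 0.11, in Ppp1r15a 0.11, in Xbp1 0.12, in Dnajc3 0.15 and in Creld2 0.25. The immediate early and heat shock list had 23310 and 20757 CPM in WT and 24778 and 24672 in cKO myeloid-like cells, and its part was not tested.

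The sensors in myeloid-like cells were again close. Eif2ak3 had 10.4 and 10.3 CPM in WT and 11.3 and 10.7 in cKO, Ern1 had 28.2 and 29.3 against 28.9 and 24.4, and Atf6 had 63.2 and 57.9 against 54.6 and 62.0. Atf4 had 202 and 233 against 215 and 206, Ddit3 had 52.1 and 65.4 against 68.8 and 65.3, Dnajb9 had 91.4 and 106 against 108 and 116, and Herpud1 had 92.4 and 112 against 85.8 and 102. The WT and cKO values overlapped except for Eif2ak3 and Dnajb9, where both cKO values were the higher. The log2 differences of these 7 genes lay between -0.12 and 0.19. In the wider list no gene was called, with Erlec1 (0.28 ± 0.13) and Psat1 (-0.24 ± 0.12) nearest to a call.

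**Figure D4:**
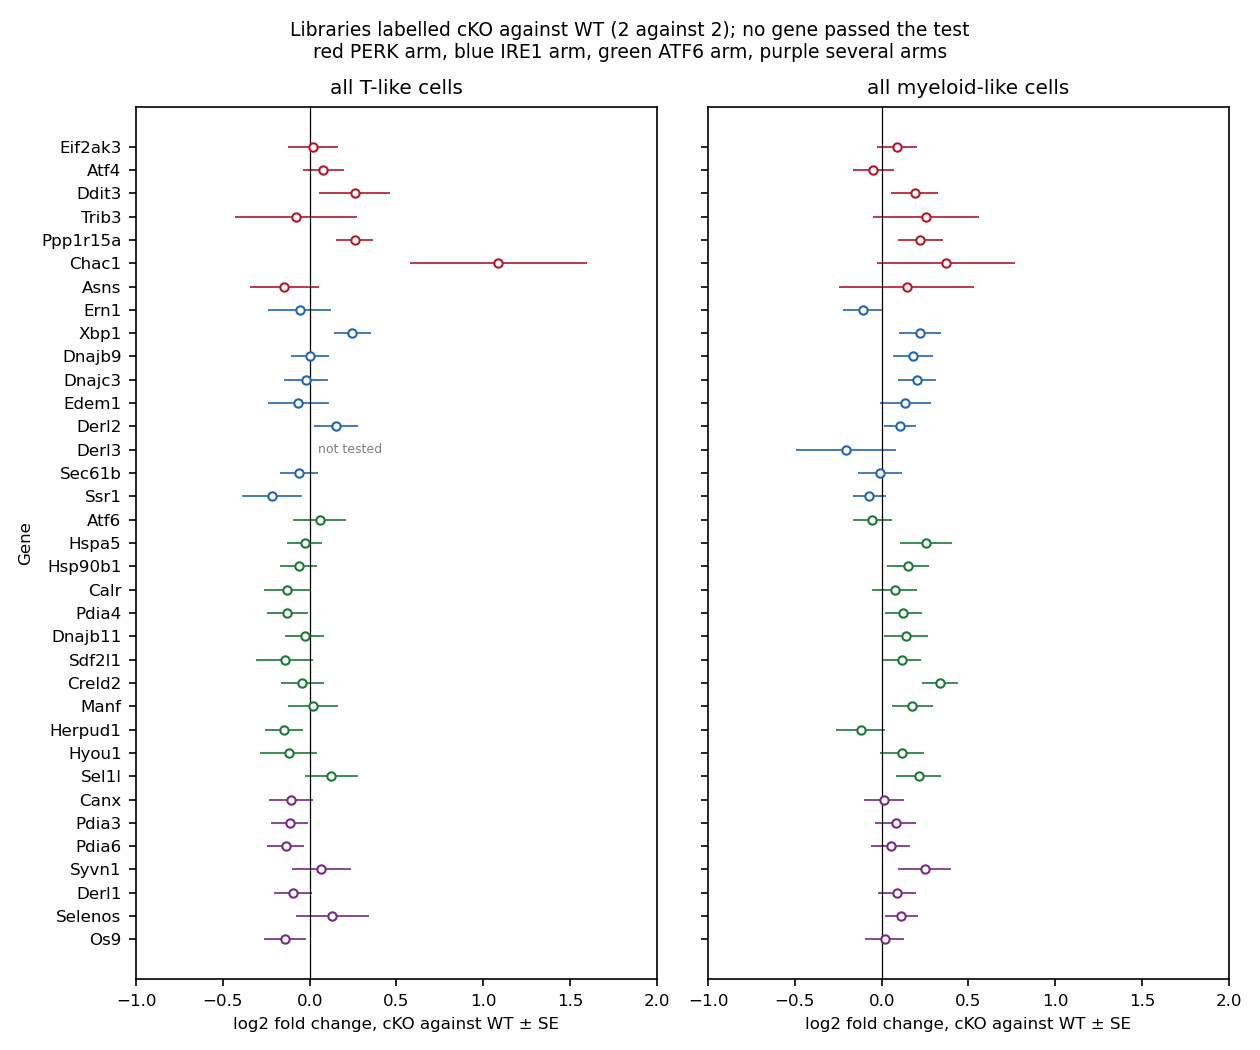
Differences between libraries labelled cKO and WT for the 35 genes. The x axis is the log2 fold change ± SE with 2 libraries a group, points are genes coloured by arm, in all T-like cells (left) and all myeloid-like cells (right); all points are open because none passed the test, and 28 of 35 lie right of 0 in myeloid-like cells.

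**Figure D5:**
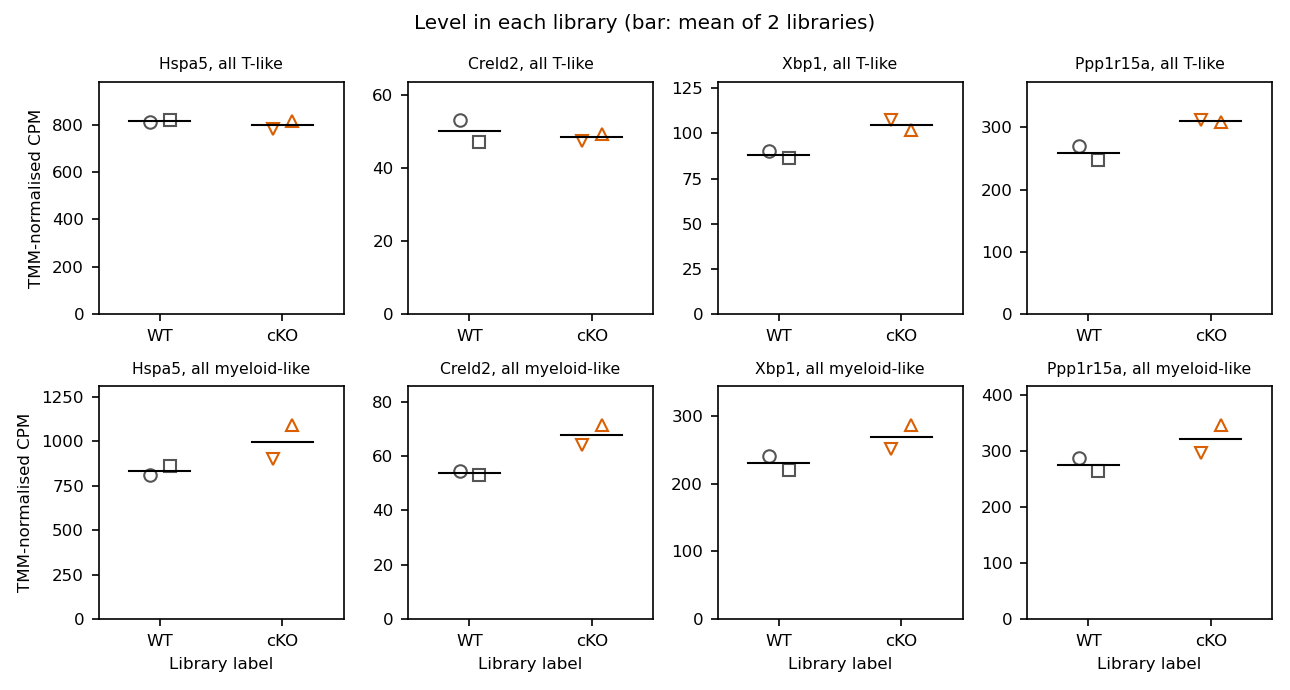
Hspa5, Creld2, Xbp1 and Ppp1r15a in each library. The y axis is TMM-normalised CPM from 0, grey points are WT and orange points cKO libraries, bars are means of 2, with T-like cells above and myeloid-like cells below; cKO replicate 2, the upward triangle, is the highest point of each myeloid-like panel.

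Within subsets no gene was called either, and the split by direction moved with single libraries. Of all genes tested, 49.2% were higher in cKO in CD8 T-like, 51.1% in conventional CD4 T-like and 50.1% in Treg-like cells. In the same order, 1.05%, 2.76% and 3.45% of all genes had an unadjusted p under 0.05. In CD8 T-like cells 21 of 32 genes were higher in cKO (0% of 9178 genes tested were called), with a median of 0.04. None of the 32 had an unadjusted p under 0.05. The median was 0.14 without WT replicate 2, and with cells gated on marker UMIs the split turned to 14 higher and 18 lower (-0.02). In conventional CD4 T-like cells 21 of 31 were higher (0.0128% of genes called), with a median of 0.09, and Ddit3 (0.66 ± 0.26) and Selenos (0.54 ± 0.23) had an unadjusted p under 0.05. Without cKO replicate 2 the split turned to 13 higher and 18 lower (-0.02), without WT replicate 2 it was 17 and 14 (0.02), and without cKO replicate 1 the median was 0.15. In Treg-like cells 16 of 31 were higher (0.0563% called), and Ern1 had a p under 0.05, with 48.6 and 67.1 CPM in WT and 114 and 73.1 in cKO. No member had such a p in Treg-like cells without the clusters of extreme Malat1 level. The same held with DESeq2, with doublets kept and with the gate on marker UMIs. The Treg-like median of 0.00 ran from -0.15 without WT replicate 2 to 0.16 without WT replicate 1, and was -0.06 without cKO replicate 1 and 0.05 without cKO replicate 2.

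In macrophage-like cells 26 of 34 genes were higher in cKO (0% of 11329 called), including all 12 ATF6 genes, with a median of 0.06, and Dnajb9 (0.38 ± 0.16) and Creld2 (0.30 ± 0.12) had an unadjusted p under 0.05. Without cKO replicate 2 it was 21 higher and 13 lower (median 0.04), and the median was 0.12 without WT replicate 1 and 0.12 without cKO replicate 1. In monocyte-like cells 26 of 33 were higher (0.00912% called), none with a p under 0.05, with a median of 0.13. These are the cells whose interferon-led cluster differed in share, as given above. Without cKO replicate 2 the monocyte-like split was 22 higher and 12 lower (0.06). The monocyte-like median was also 0.06 without WT replicate 2, and it was 0.22 without WT replicate 1 and 0.21 without cKO replicate 1. In cDC2-like cells 29 of 34 were higher (0% of 10450 called), with a median of 0.16, and Creld2 (0.38 ± 0.12), Sel1l (0.41 ± 0.18), Dnajc3 (0.28 ± 0.11) and Manf, a secreted ER stress-responsive factor (0.26 ± 0.11), had a p under 0.05. Without cKO replicate 2 the cDC2-like split was 22 higher and 12 lower (0.09). DESeq2 called none of the genes in any of these classes. Of all genes tested, 51.3% were higher in cKO in macrophage-like, 48.2% in monocyte-like and 51.7% in cDC2-like cells. In the same order, 4.16%, 6.34% and 3.80% of all genes had an unadjusted p under 0.05.

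The difference of the cKO effect between T-like and myeloid-like cells was tested itself, as an interaction term in a fit blocked by library. None of the 35 genes passed edgeR's test, where 0.0151% of the 13232 genes tested did, and DESeq2 called none. Of the 35 genes 8 had a higher and 27 a lower cKO effect in T-like than in myeloid-like cells. The median was -0.19, against -0.03 over all genes tested, of which 43.8% had a higher effect. Without cKO replicate 2 the split was 13 higher and 22 lower, with a median of -0.10. The ATF6 arm had 1 higher and 11 lower and the genes with several arms 7 lower of 7, while the PERK arm had 4 higher and 3 lower. Creld2 (-0.41 ± 0.13), Hspa5 (-0.31 ± 0.13) and Pdia4 (-0.29 ± 0.12) had an unadjusted p under 0.05, each with an edgeR adjusted p of 1. An unadjusted p under 0.05 was found for 3.49% of all genes tested. Both arms of this difference come from the same 4 libraries. In the wider list no gene was called, with Mthfd2 (-0.32 ± 0.12) and Ddit4 (0.26 ± 0.13) nearest to a call.

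Genes left out of a test had too few UMIs. Derl3 was not tested for genotype in all T-like cells, where it had 25 UMIs in all, nor Chac1 in macrophage-like and monocyte-like cells. In the T cell subsets Derl3, Trib3 and Chac1 fell below the filter, as did Asns in conventional CD4 and Treg-like cells. Neutrophil-like cells (117) and mast cell or basophil-like cells (121) held under 20 cells in some libraries and were not compared on their own. The neutrophil-like cells entered only as part of all myeloid-like cells. Levels of both classes are given as a description. In mast cell or basophil-like cells Hspa5 had 2075, 1862, 2574 and 2068 CPM and Dnajb9 1038, 1128, 1044 and 889, in each library above the mean of every one of the 12 classes compared. In neutrophil-like cells Ppp1r15a had 1704, 1314, 1373 and 669 CPM and Ddit3 202, 267, 282 and 129, from 11 to 45 cells a library.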

How the data were processed

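The authors deposited, for each of the 4 libraries, a matrix of raw counts of UMIs, with genes against cell barcodes, made with Cell Ranger 6.1.1 per the file headers. The submitters' processing notes also name CASAVA 1.8 and Seurat, and the genome build and annotation are not given in the sources used here. No column of another unit was used.

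Barcodes with under 300 genes or over 15% mitochondrial UMIs were dropped (scanpy 1.11.5). Scrublet's automatic threshold called 0 doublets, so the top doublet scores were taken out instead, at 0.8% per 1000 cells, 2117 of 32801 barcodes, beside 405 that failed the filters. Clusters (2000 variable genes without the 35 members, 30 components, 20 neighbours, Leiden resolution 1) were named from marker genes. Counts were summed per library and class, and tested with edgeR 4.0.16 (R 4.3.3; TMM, filterByExpr, robust quasi-likelihood fit, Benjamini-Hochberg over all genes tested, threshold 0.05). Class contrasts and the interaction had the library as a block. DESeq2 1.42.0 was an alternative. Library totals were 64141857 to 79747752 UMIs, and zero counts were given a floor of 3 UMIs over the class. The procedure was also run on simulated counts whose spread followed only the trend over genes. That run does not show how well changes are found in these libraries.

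The members and lists were chosen with earlier results of these data known. Named in each lineage were the 3 sensors, Hspa5, Xbp1, Atf4, Ddit3, Dnajb9 and Herpud1, with the called genes or else the 5 with the smallest p, and in class contrasts up to 3 called genes with the largest rise and 3 with the largest fall. From the wider list came up to 3 called genes with the smallest p, or 2 where none was called. Classes with under 20 cells in a library were not compared on their own. Alternatives were another tool, no filter on low counts, each library left out, WT libraries only, a replicate block, other cell filters, doublets kept, Leiden resolution 2 and a gate on marker UMIs. Chosen after seeing the data were leaving out shared barcodes, clusters of extreme Malat1 level and B-like cells rich in Jchain UMIs.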

Additional observations from a re-analysis of the deposited data

How the results depend on the processing

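No named gene that was called between classes changed sign, and no genotype comparison gained a call among the 35 genes, under the alternatives run. Splits by direction between genotypes did turn: in CD8 T-like cells from 21 higher and 11 lower to 14 and 18 with the gate on marker UMIs, and in conventional CD4 T-like cells from 21 and 10 to 13 and 18 without cKO replicate 2. Treg-like cells, near even at 16 and 15, ran from 11 and 21 without WT replicate 2 to 23 and 8 without WT replicate 1. With the replicate block the genotype comparisons again had 0 calls. Replicate numbers are shared by the labels, which do not say that a number marks a pair, so the main fits did not pair the libraries. The difference of replicate 1 from replicate 2 in WT correlated with that in cKO at 0.219 over 11009 genes in T-like cells. In myeloid-like cells the correlation was 0.0966 over 12661 genes. Neither value decides whether libraries of the same number shared a batch, because the labels name none. Of the class contrasts, Treg-like against conventional CD4 T-like cells had 5 calls with WT libraries only and 5 with the gate on marker UMIs. CD8 T-like against conventional CD4 T-like cells had 3 with DESeq2, 1 with WT libraries only, and 2 to 11 with 1 library left out. NK-like against CD8 T-like cells had 9 with WT libraries only, and pDC-like against cDC2-like cells 15 with the gate. The WT-only fits use fewer samples; the cause of the other changes was not tested. Of 676 values of single genes in class contrasts, 623 kept their call, 53 lost it and 0 changed sign. Of 348 such values between genotypes, 25 changed sign without passing the test. With 2 libraries a group, and few UMIs for genes such as Chac1, Asns and Derl3, the lack of calls between genotypes does not show that the genes were unchanged.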
